A study of Mus musculus with 12 samples.

Results

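The 34 genes described here are the mouse Wnt ligands and the receptors that bind them, taken by name from a list of 19 ligands, 10 frizzled receptors, the co-receptors Lrp5 and Lrp6, and the receptors Ror1, Ror2 and Ryk. All 34 were found by symbol among the 25887 genes of the deposited tables, and 29 were expressed, meaning a mean of at least 10 normalised counts in at least 1 group. The samples were primary cells sorted by FACS from the dermal papilla, the mesenchymal cluster that instructs the hair follicle from below. WT mice were compared with Smo* mutants, in which a gain-of-function form of Smo, the membrane protein that relays the Hedgehog signal, is specific to the dermal papilla according to the study's title. The labels do not give the allele, the Cre line or the strain. The 4 groups held 3 libraries each: P20 WT and P20 Smo*, both female and in telogen (the resting stage), P28 WT, male and in anagen VI (full growth), and P28 Smo*, male and in anagen I-III (early growth). Age, sex and stage change together between P20 and P28, and at P28 the genotypes also differ in stage, so these cannot be told apart. No label says that libraries came from separate animals, so the p-values reflect only how far these libraries spread, which may be technical.

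Wnt proteins are lipid-modified secreted ligands. When a Wnt binds a frizzled receptor together with Lrp5 or Lrp6, beta-catenin is stabilised and acts with the TCF/LEF factors on target genes, while Ror1, Ror2 and Ryk pass other, beta-catenin-independent signals on cell shape and polarity. In skin, Wnt signals are exchanged in both directions between the epithelium and the dermal papilla, and beta-catenin activity is needed for a hair follicle to enter anagen.

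The libraries held 36323058 to 48926831 reads on genes. Between 17337 and 17926 genes had a read in 11 libraries, against 15453 in P28 Smo* replicate 3. Smo ranged from 5037 to 5225 normalised counts in P20 WT, 6351 to 7528 in P20 Smo*, 5418 to 6144 in P28 WT and 7487 to 8694 in P28 Smo*, and the Hedgehog target Gli1 from 1022 to 2245, 3665 to 5324, 1396 to 1581 and 4071 to 4435 in the same order. All 15 dermal papilla markers had reads, and their summed level was 94601 to 131869 in P20 WT, 106488 to 142125 in P20 Smo* and 436113 to 512310 in P28 WT. In P28 Smo* it was 76651 to 384605, with the lowest of all 12 libraries in replicate 3. That library stands apart from its group. Counts of called genes between genotypes at P28, and members whose call it changed, are given with and without it. Values of other pathway genes and of markers are given with it. Dermal fibroblast markers were also high in every library, with a summed level of 236830 to 447646. At P20 this level was 360639 to 378379 in WT and 269481 to 301102 in Smo*, without overlap.

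The regulatory sequence next to the genes that carry the P28 difference between genotypes is shown first. RefSeq (GRCm38.p6) promoter windows were matched for 24 of the 34 genes, giving 27 windows of 250 bases that end at the base before an annotated start. Wnt6 (chr1:74771642-74771891, plus strand), Wnt16 (chr6:22287977-22288226, plus strand) and Fzd1 (chr5:4758217-4758466, minus strand) are shown because their difference between Smo* and WT at P28 was called in every fit that left out 1 library. These 3 windows lie upstream of the gene models in GENCODE.
Wnt6: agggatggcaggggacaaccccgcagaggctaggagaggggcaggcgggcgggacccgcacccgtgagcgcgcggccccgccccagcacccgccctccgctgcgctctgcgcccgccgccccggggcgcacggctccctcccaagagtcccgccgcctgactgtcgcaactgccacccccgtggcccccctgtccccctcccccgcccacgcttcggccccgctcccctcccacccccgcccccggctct
Wnt16: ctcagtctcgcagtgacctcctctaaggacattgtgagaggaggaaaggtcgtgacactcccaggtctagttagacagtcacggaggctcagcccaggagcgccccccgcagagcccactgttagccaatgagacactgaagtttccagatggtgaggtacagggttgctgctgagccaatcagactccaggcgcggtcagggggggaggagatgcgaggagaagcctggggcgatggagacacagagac
Fzd1: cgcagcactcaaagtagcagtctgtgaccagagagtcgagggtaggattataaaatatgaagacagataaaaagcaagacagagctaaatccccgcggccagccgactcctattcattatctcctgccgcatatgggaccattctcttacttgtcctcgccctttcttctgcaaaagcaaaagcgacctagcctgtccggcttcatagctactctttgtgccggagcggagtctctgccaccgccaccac
The Wnt6 window is 79.6% G or C, the Wnt16 window 59.2% and the Fzd1 window 51.2%, against a median of 71.6% over the 27 windows and 52.4% over the 32851 windows of all genes.

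Each window was searched on both strands for GACCACCCA, the core letters bound by GLI factors of the Hedgehog pathway, and for CTTTGAT or CTTTGAA, letters bound by TCF/LEF factors. None of the 27 windows held the GLI letters, which 0.225% of all 32851 windows held. TCF/LEF letters were found in 2 of the 27 windows, against 7.48% of all windows. These windows are given with the match in capitals. The Wnt11 window (chr7:98834862-98835111, plus strand) lies upstream of the gene and holds the reverse complement 51 bases before its start, and the Wnt5b window (chr6:119449387-119449636, minus strand) lies in an intron before the third of 3 annotated starts, with the match 71 bases before it.
Wnt11: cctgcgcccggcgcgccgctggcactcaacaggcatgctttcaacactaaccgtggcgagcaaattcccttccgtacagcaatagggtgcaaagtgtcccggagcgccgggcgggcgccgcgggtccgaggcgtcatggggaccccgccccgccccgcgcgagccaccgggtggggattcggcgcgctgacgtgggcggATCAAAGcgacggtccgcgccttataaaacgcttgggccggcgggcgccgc
Wnt5b: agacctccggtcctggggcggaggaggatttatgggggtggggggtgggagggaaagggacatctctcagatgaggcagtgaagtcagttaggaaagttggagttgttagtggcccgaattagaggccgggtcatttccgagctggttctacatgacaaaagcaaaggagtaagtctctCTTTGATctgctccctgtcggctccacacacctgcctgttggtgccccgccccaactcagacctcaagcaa
A match is a run of letters and not a shown binding site.

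**Figure D1:**
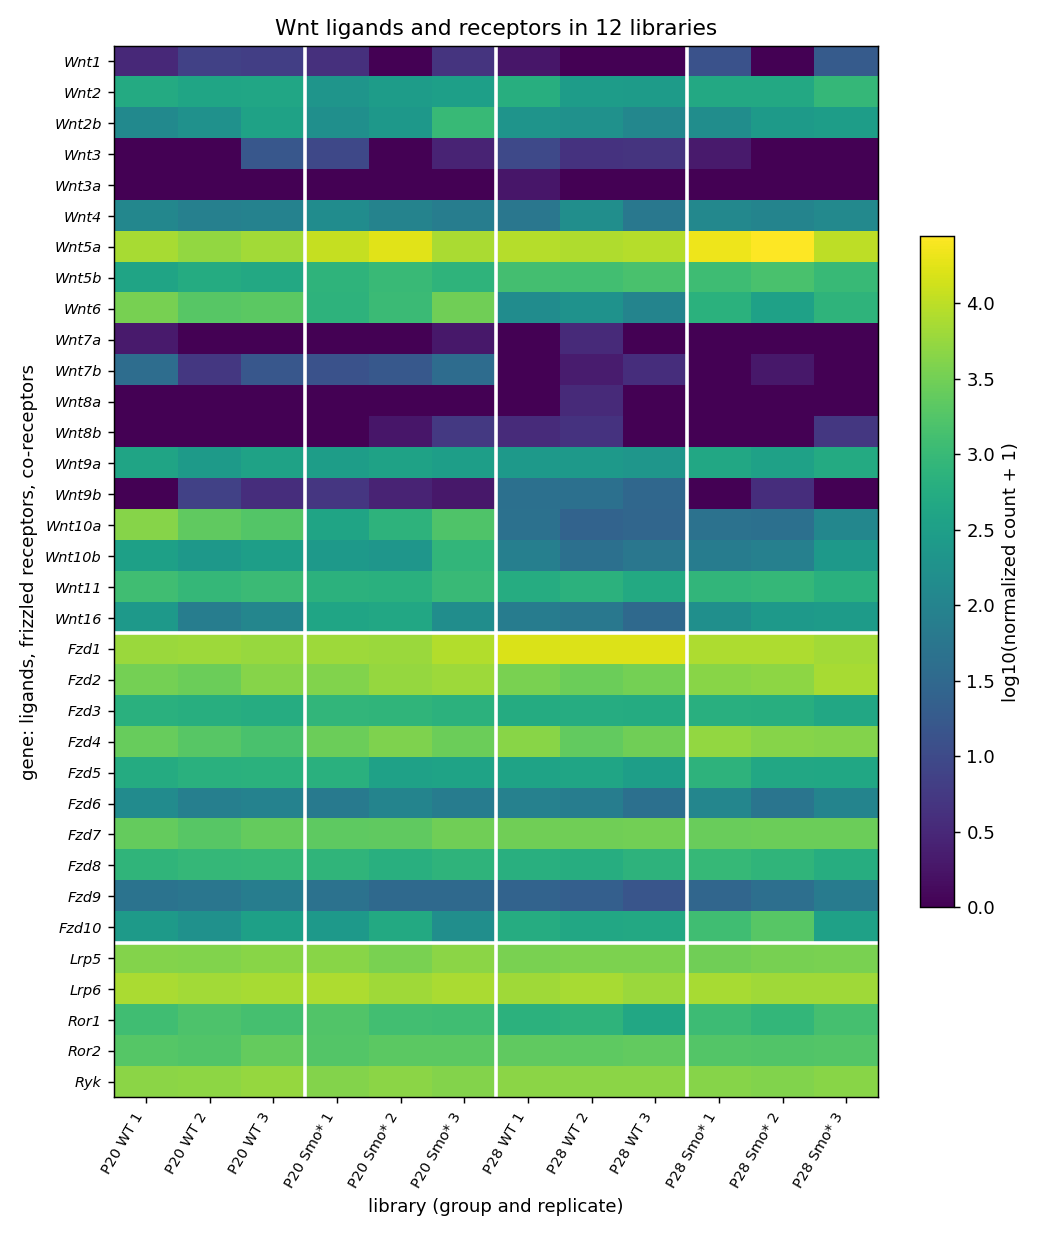
Levels of the 34 genes (rows: ligands, then frizzled receptors, then co-receptors and other receptors) in each of the 12 libraries (columns), as log10(normalised count + 1) by colour. Wnt5a, Fzd1, Lrp6 and Ryk are bright in every library, Wnt6 and Wnt10a are bright at P20 and darker at P28, and Wnt3, Wnt3a, Wnt7a, Wnt8a and Wnt8b are near 0.

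Of the 19 ligands, 14 were expressed, and of the 15 receptors all 15 were. To compare genes with each other, normalised counts were divided by the length of each gene's exons in kilobases (kb). On that scale Wnt5a, the main ligand of the beta-catenin-independent route, was the highest ligand, with a mean over the 4 groups of 1507 per kb, followed by Wnt6 at 556, Wnt10a at 390.1 and Wnt5b at 367. Of the groups, P20 Smo* kept that order in its means (1559, 747, 379 and 325 per kb), and the others did not. In P20 WT, Wnt10a (1141 ± 564 per kb, mean ± SD of 3 libraries here and below), Wnt6 (1138 ± 361) and Wnt5a (821 ± 123) did not differ beyond their spread. In P28 WT, Wnt5a (1119 ± 52.8 per kb) and Wnt5b (507 ± 42.1) stood above Wnt6 (65.1 ± 19.4) and Wnt10a (13.2 ± 4.19) by more than their spread. Among receptors Fzd1 was the highest, at 2178 per kb, ahead of Fzd2 (1188), Ryk (1016) and Fzd7 (589.7). The lowest expressed receptors per kb were Fzd6 (17.5) and Fzd9 (17.7).

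Wnt3, Wnt3a, Wnt7a, Wnt8a and Wnt8b were not expressed by this measure. Wnt3a, a classical activator of beta-catenin, had 1 read in all 12 libraries, Wnt8a had 2, Wnt7a 4, Wnt8b 16 and Wnt3 44. A library with 0 reads of a gene allows up to 3 reads by counting error alone. Wnt1, the founding member of the family, passed only through P28 Smo*, where its libraries held 12.1, 0 and 18.2 normalised counts against at most 6.24 in any other library. Counting only genes with a group mean of at least 50 would leave 26 of 34, and a mean of at least 1 would admit 31.

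Each comparison was tested with limma on log2(normalised count + 1), over genes with a mean of at least 10, and called below a Benjamini-Hochberg adjusted p of 0.05 over all genes tested. Wnt1, Wnt3, Wnt3a, Wnt7a, Wnt8a and Wnt8b were too low to be tested in any comparison. At P20, Smo* against WT, 0 of 27 tested genes were called by limma, where 0.485% of the 14645 genes tested were called higher and 0.212% lower. At an unadjusted p under 0.05 there were 8, against 1669 of the 14645 genes. edgeR called 0 of the 27 and 93 of all genes, and DESeq2 called 3 (Wnt2, Wnt5a and Wnt5b) and 480 of all genes. In the authors' deposited table, where 2.13% of genes were called at P20 in either direction, Wnt5b was the 1 called. At P28, Smo* against WT, 3 of 27 tested genes were higher (Wnt6, Wnt9a and Wnt16) and 2 were lower (Wnt9b and Fzd1). These are 11.1% and 7.41% of the 27, where 4.05% of the 14757 genes tested were called higher and 4.85% lower. The median log2 fold change of the 27 was 0.50, against -0.01 over all genes tested, and 10 of 12 tested ligands lay above 0 with a median of 0.82. Without P28 Smo* replicate 3, 8 genes were called, the same 5 together with Wnt5a, Fzd2 and Fzd10, all 3 higher. The shares of all genes above are of the fit with all libraries and do not apply to that count. The authors' deposited table called 9 of the 34 at P28, where it called 16.8% of genes.

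Between P20 and P28 in WT, 5 of 28 tested genes rose (Wnt5b, Wnt9b, Fzd1, Fzd4 and Fzd7) and 8 fell (Wnt6, Wnt7b, Wnt10a, Wnt10b, Wnt11, Fzd5, Fzd9 and Ror1). These are 17.9% and 28.6% of the 28, where 13.5% of the 14790 genes tested rose and 11.9% fell. The median over the 28 was -0.29, against -0.01 over all genes tested. Between P20 and P28 in Smo*, 0 of 28 rose, where 1.98% of all genes tested did, and 2 fell, Wnt7b and Wnt10a (7.14%, where 1.47% of all genes did). Without P28 Smo* replicate 3 there were 5, the same 2 together with Wnt10b as lower and Wnt5a and Fzd10 as higher. The shares of all genes in this paragraph are of fits with all libraries and do not apply to counts without that replicate. A direct test of the difference, the Smo* effect at P28 minus that at P20, called Wnt6 as higher (3.57% of 28, where 1.89% of all genes were) and Wnt5b and Fzd1 as lower (7.14%, where 2.83% were). Without P28 Smo* replicate 3 it called Wnt6 and Fzd1 alone. These comparisons share libraries, above all the 3 of P28 WT, so their results for a gene are not independent of each other. The 34 genes were not tested as a set, and with 27 or 28 genes 1 call moves a share by several percent. Wnt9b could be tested only because of its level in P28 WT. Its calls are part of the shares between genotypes at P28 and with age in WT. Wnt7b could be tested with age only because of its level at P20, and its calls are part of the shares with age in WT and in Smo*.

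**Figure D2:**
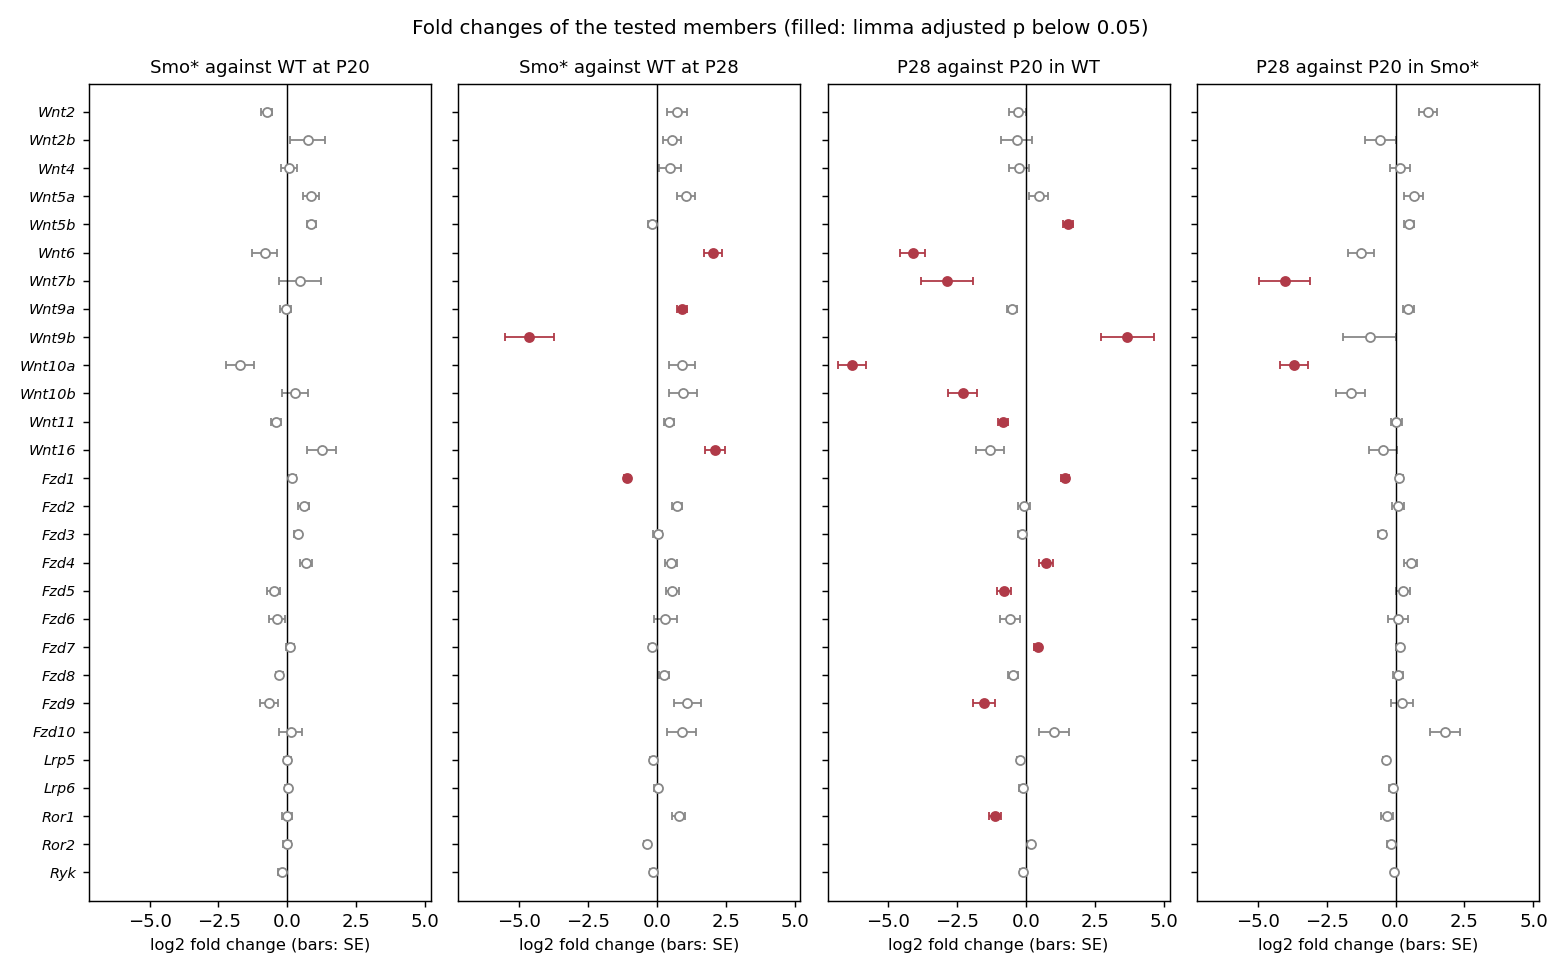
Log2 fold changes with their SE for the 28 tested genes (rows) in 4 comparisons (panels), filled where the limma adjusted p was below 0.05. Filled points are absent from the P20 panel, and the widest change is the fall of Wnt10a between P20 and P28 in WT, at -6.32.

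Wnt10a, a ligand of the beta-catenin route needed for hair and teeth, showed the widest change. It lies at chr1:74791516-74804179. Its level was 4399, 2267 and 1782 normalised counts in the P20 WT libraries, 394, 743 and 1670.2 in P20 Smo*, 44.4, 24.9 and 28.5 in P28 WT and 47.4, 42.7 and 111 in P28 Smo*. Every P20 library was above every P28 library, and within P20 the 3 Smo* libraries were below the 3 WT libraries. From P20 to P28 it fell in WT from 2816 ± 1392 to 32.6 ± 10.3 (log2 fold change -6.32 ± 0.51 (SE), adjusted p = 8.96e-06 by limma) and in Smo* from 936 ± 659.7 to 67.1 ± 38.3 (log2 fold change -3.67 ± 0.51 (SE), adjusted p = 0.00555 by limma). Both falls were called without each library in turn. The P20 difference between genotypes (log2 fold change -1.73 ± 0.51 (SE), adjusted p = 0.236 by limma) and the difference of the Smo* effect between ages (2.65, limma adjusted p = 0.0579) did not pass. In bulk RNA, fewer cells of a type and less RNA per cell cannot be told apart, here and for every gene below.

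Wnt6, also a ligand of the beta-catenin route, is the neighbour of Wnt10a on the same strand, at chr1:74771892-74785322, 6193 bases away. It held 3403, 1951 and 2128 normalised counts in P20 WT, 755, 1083 and 3075 in P20 Smo*, 143, 185 and 100.4 in P28 WT and 684, 354 and 772 in P28 Smo*. The P28 WT libraries were the lowest of all 12. Every P28 Smo* library was below every P20 WT library, and 1 of them was above P20 Smo* replicate 1. In WT it fell with age (log2 fold change -4.12 ± 0.46 (SE), adjusted p = 8.17e-05 by limma). At P28 it was higher in Smo*, at 603 ± 221 against 143 ± 42.5 (log2 fold change 2.04 ± 0.34 (SE), adjusted p = 0.0107 by limma), and this was called in all 6 fits that left out 1 library, with adjusted p from 0.00382 to 0.0447. The Smo* effect at P28 exceeded that at P20 by 2.87 on the log2 scale (SE 0.65, limma adjusted p = 0.0288), a call lost without any one of 6 libraries (P20 WT replicates 1, 2 and 3, P20 Smo* replicate 2, P28 WT replicate 3 or P28 Smo* replicate 1), with adjusted p up to 0.083. For Wnt10a at P28 the Smo* libraries overlapped those of WT and the difference there did not pass (0.92, limma adjusted p = 0.259).

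Wnt10b, the paralog of Wnt10a, held 341, 234 and 313 normalised counts in P20 WT, 242, 219.5 and 831 in P20 Smo*, 82.8, 42.8 and 56.2 in P28 WT and 71.6, 84.4 and 241 in P28 Smo*. Replicate 3 was the highest library of both Smo* groups. It fell in WT from P20 to P28 (log2 fold change -2.31 ± 0.52 (SE), adjusted p = 0.00721 by limma), and the fall in Smo* did not pass (-1.63, limma adjusted p = 0.0975) unless P28 Smo* replicate 3 was left out (-2.17, limma adjusted p = 0.0235).

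Wnt7b, another beta-catenin ligand, was near the detection limit. It held 37.3, 4.16 and 15.4 normalised counts in P20 WT, 12.4, 15.7 and 36.5 in P20 Smo*, 0, 1.19 and 2.76 in P28 WT and 0, 0.948 and 0 in P28 Smo*. All P20 libraries were above all P28 libraries. In WT 53 reads at P20 stood against 4 at P28, a ratio of 14.2 (95% exact interval 5.25 to 54.2), and in Smo* 70 against 1, a ratio of 63.1 (10.97 to 2529), intervals that cover counting error only. Both falls passed (-2.87, limma adjusted p = 0.0397 in WT and -4.02, limma adjusted p = 0.0399 in Smo*). Wnt7b reached the mean needed for these tests only through P20, with group means of 18.96 in P20 WT and 21.5 in P20 Smo*. The means were 1.32 in P28 WT and 0.316 in P28 Smo*. It could thus be tested with age only because P20 was high, which limits what these calls show. The call was lost in WT without P20 WT replicate 3 or any P28 WT library (up to 0.117), and in Smo* without P20 or P28 Smo* replicate 1 or 2 (up to 0.0994). It thus held in 1 of 5 such fits in each genotype, and without P20 WT replicate 1 or P20 Smo* replicate 3 the mean was too low to test.

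Wnt11, which acts in cell movement and polarity, held 1187, 924 and 1081 normalised counts in P20 WT, 713, 674 and 1039.5 in P20 Smo*, 574, 713 and 503 in P28 WT and 858, 924 and 667 in P28 Smo*. P28 WT was below P20 WT in every library, while the Smo* groups overlapped each other and the WT group of their own age. It fell with age in WT (log2 fold change -0.84 ± 0.19 (SE), adjusted p = 0.00791 by limma), called without each library in turn. In Smo* the same change was 0.03 (limma adjusted p = 0.95), and the difference of the Smo* effect did not pass (0.87, limma adjusted p = 0.0917).

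Wnt5b moved the other way. This relative of Wnt5a, at chr6:119432531-119544347, held 391, 551 and 472 normalised counts in P20 WT, 782, 1034 and 769 in P20 Smo*, 1331, 1244 and 1465 in P28 WT and 1185, 1461 and 997 in P28 Smo*. The P20 WT libraries were the lowest 3 of the 12, and the P20 Smo* libraries lay between them and the P28 WT libraries. In WT it rose from 471 ± 79.7 to 1346 ± 112 (log2 fold change 1.52 ± 0.17 (SE), adjusted p = 9.93e-05 by limma), called without each library in turn. The P20 difference between genotypes (0.87, SE 0.18, limma adjusted p = 0.0861) did not pass in the 6-library fit, but was called in a fit over all 12 libraries (limma adjusted p = 0.0385) and in the authors' deposited table (adjusted p = 0.00114). At P28 the genotypes overlapped (-0.16, limma adjusted p = 0.551). The Smo* effect was lower at P28 than at P20 by the direct test (-1.03, SE 0.25, limma adjusted p = 0.0369). That call was lost in 9 of the 12 fits that left out 1 library, and held without P20 WT replicate 2, P20 Smo* replicate 1 or P28 Smo* replicate 2.

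Wnt5a, at chr14:28504750-28527448, held 7184, 5346 and 6740.3 normalised counts in P20 WT, 11244, 17825 and 7521 in P20 Smo*, 9058, 8286 and 8926 in P28 WT and 21311, 27963 and 10051 in P28 Smo*. At both ages all Smo* libraries were above all WT libraries, and the Smo* libraries were widely spread. The differences did not pass with all libraries, at P20 (log2 fold change 0.85 ± 0.28 (SE), adjusted p = 0.284 by limma) or at P28 (log2 fold change 1.05 ± 0.33 (SE), adjusted p = 0.0919 by limma). Without P28 Smo* replicate 3, the lowest of its group, the P28 difference was 1.48 (limma adjusted p = 0.000908). The authors' deposited table called it at P28 (adjusted p = 0.00444) and not at P20 (0.156).

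Wnt16, a ligand known for its role in bone, held 258, 77 and 109 normalised counts in P20 WT, 415, 468 and 148 in P20 Smo*, 71.7, 59.4 and 32.2 in P28 WT and 165, 248 and 278 in P28 Smo*. It lies at chr6:22288227-22298522. At P28 all Smo* libraries were above all WT libraries, and at P20 the genotypes overlapped. The P28 difference passed (log2 fold change 2.10 ± 0.36 (SE), adjusted p = 0.0122 by limma) and was called in all 6 fits that left out 1 library, with adjusted p from 0.0181 to 0.0453. Its P20 difference was 1.24 (limma adjusted p = 0.433), and the Smo* effects at the 2 ages were not shown to differ (0.86, limma adjusted p = 0.512).

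Wnt9a, which acts in joints and cartilage, held 399, 259 and 362 normalised counts in P20 WT, 294, 362 and 307 in P20 Smo*, 242, 249 and 212 in P28 WT and 471, 354 and 514 in P28 Smo*. The P28 WT libraries were the lowest of the 12 and did not overlap with P28 Smo*. At P28 it was higher in Smo* (log2 fold change 0.91 ± 0.19 (SE), adjusted p = 0.025 by limma). The call was lost without any P28 WT library or without P28 Smo* replicate 1, with adjusted p up to 0.105.

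Wnt9b, known from kidney tubule formation, was found almost only in P28 WT. It lies at chr11:103727364-103749821 and held 0, 6.24 and 2.89 normalised counts in P20 WT, 4.13, 1.74 and 0.913 in P20 Smo*, 42.7, 42.8 and 29.5 in P28 WT and 0, 2.85 and 0 in P28 Smo*. The 118 reads of the P28 WT libraries stood against 9 in P20 WT, 7 in P20 Smo* and 3 in P28 Smo*. The level in P28 WT was 12.2 times that in P20 WT (95% exact interval 6.21 to 27.3, counting error only) and 36.8 times that in P28 Smo* (12.3 to 181). Both differences passed (in WT from P20 to P28 3.67, limma adjusted p = 0.0143, and Smo* against WT at P28 -4.63, limma adjusted p = 0.0184). Wnt9b reached the mean needed for testing only through P28 WT, with a group mean of 38.3 normalised counts. The means were 3.04 in P20 WT, 2.26 in P20 Smo* and 0.948 in P28 Smo*. It could thus be tested only because P28 WT was high, which limits what these calls show. The rise was called in 2 of the 3 fits that left out a P20 WT library, and not without replicate 1 (0.051). Without any one P28 WT library its mean was too low for that test, and the P28 difference between genotypes did not pass (up to 0.109). Its mean was too low to be tested at P20.

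**Figure D3:**
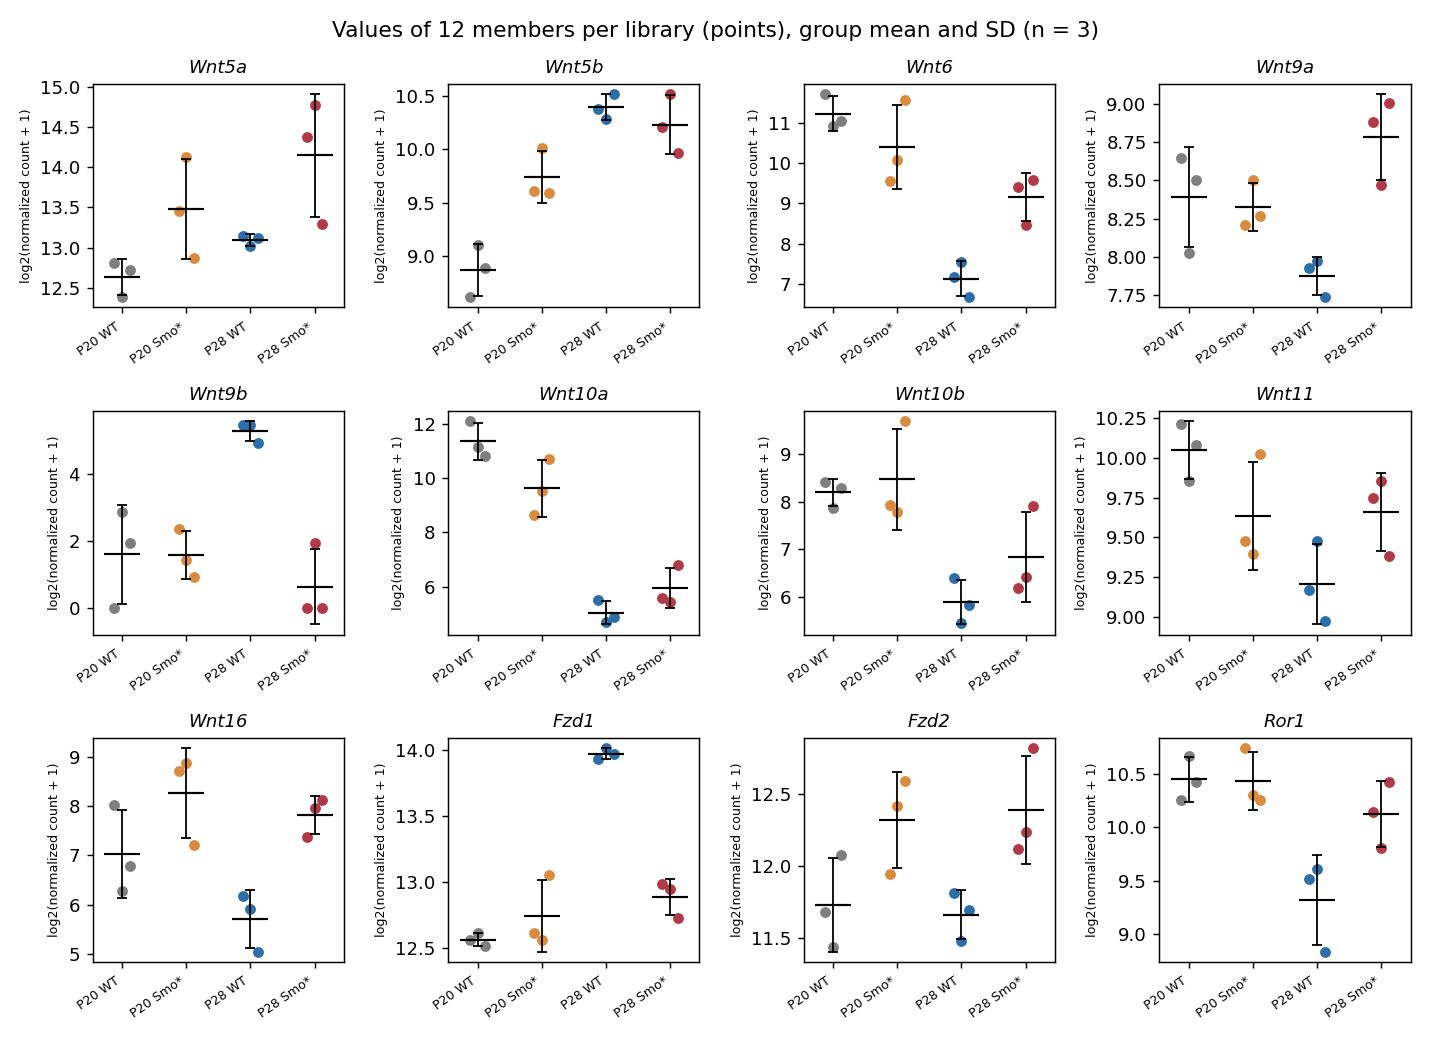
Values of 12 of the genes as log2(normalised count + 1) on axes that do not start at 0, 1 point per library with the group mean and SD (n = 3), for P20 WT, P20 Smo*, P28 WT and P28 Smo*. Fzd1 and Wnt9b are highest in P28 WT, Wnt6 and Wnt10a are lower at P28, and Wnt5a and Fzd2 spread widely in P28 Smo*.

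The other 3 ligands that were tested, Wnt2, Wnt2b and Wnt4, were called in no comparison by limma with all libraries. They ranged over the 12 libraries from 204 to 908 normalised counts (Wnt2), 111 to 974 (Wnt2b) and 57.2 to 156 (Wnt4). DESeq2 called Wnt2 in 3 comparisons: lower in Smo* at P20, higher at P28 than at P20 in Smo*, and in the difference between ages, which limma also called without P28 WT replicate 1 (1.86, limma adjusted p = 0.021). The highest Wnt2b value, 974, was in P20 Smo* replicate 3. The same library was the highest of its group for Wnt6, Wnt10a, Wnt10b and Wnt11 and the lowest for Wnt5a, Wnt16 and Fzd10.

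The make-up of the ligand pool differed between the ages in WT. As a share of the summed ligand level per kb, Wnt10a made up 20.4 to 33.9% of the 3 P20 WT libraries and 0.478 to 0.769% of the P28 WT libraries, and Wnt6 26.7 to 29.5% and 2.15 to 3.997%. Wnt5a made up 17.5 to 24.4% in P20 WT, 22.1 to 55.3% in P20 Smo*, 49.5 to 53.6% in P28 WT and 42.5 to 71.2% in P28 Smo*. Wnt5b made up 2.8 to 6.22% in P20 WT, 21.4 to 25.9% in P28 WT and 10.6 to 12.4% in P28 Smo*. The summed ligand level was 3334 to 5260.4 per kb in P20 WT, 2834 to 4354 in P20 Smo*, 2115 to 2338 in P28 WT and 3020.3 to 5019 in P28 Smo*, so the P28 WT libraries were the lowest. Shares are a description with no test, and a share can move because another ligand moved. Not dividing by length, as tried after the data were seen, gave Wnt5a, the ligand with the longest exons, 43.7% in place of 20.8% in P20 WT.

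**Figure D4:**
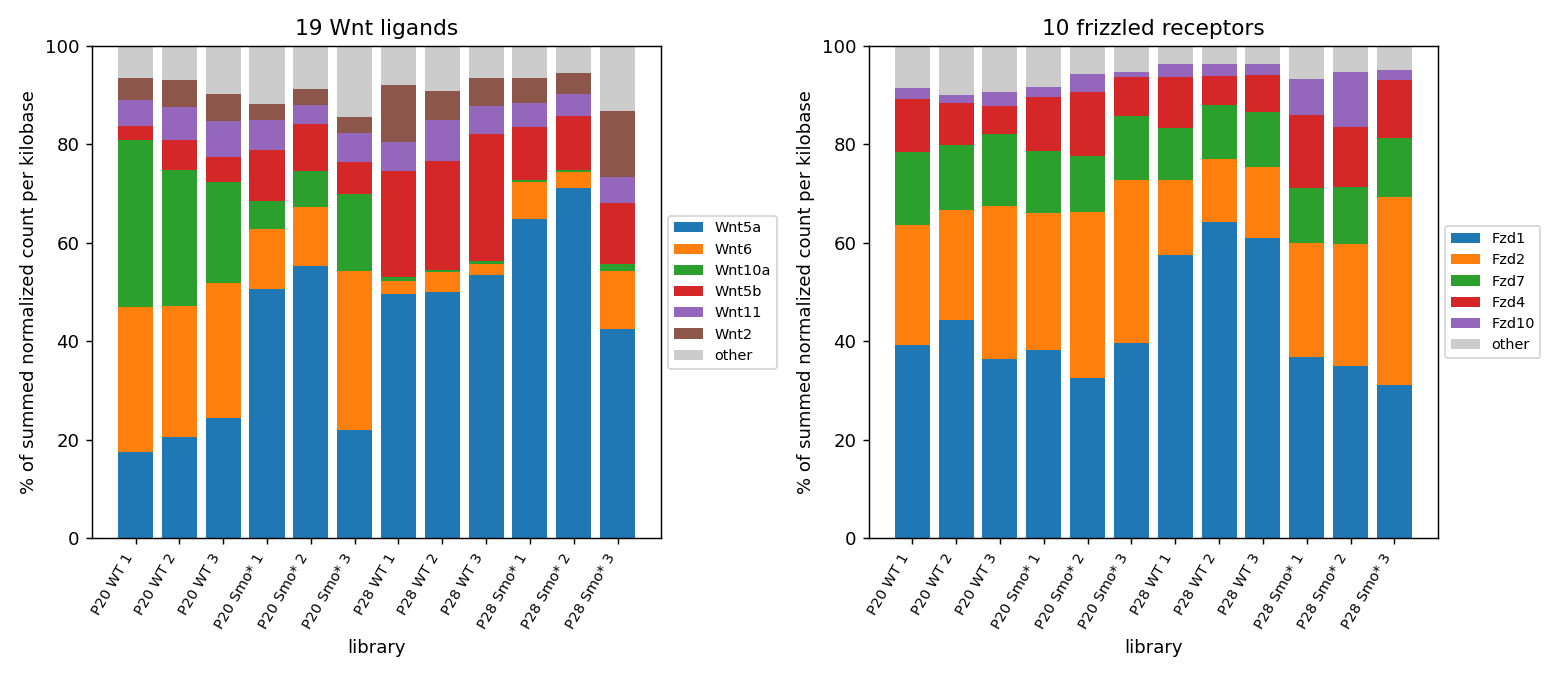
Share of the summed normalised count per kb (%) taken by 6 ligands (left) and 5 frizzled receptors (right), with the other genes of each family summed, in each of the 12 libraries. Wnt10a and Wnt6 together fill a large part of the P20 WT bars and little of the P28 bars, and Fzd1 fills more of the P28 WT bars (57.6 to 64.3%) than of the P28 Smo* bars (31.2 to 36.8%).

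Among the receptors Fzd1, which can signal through beta-catenin, had the clearest pattern. It lies at chr5:4753839-4758035 and held 6042, 6244 and 5829.7 normalised counts in P20 WT, 6267, 6025 and 8490.4 in P20 Smo*, 15579.6, 16509 and 15981 in P28 WT and 8081, 7868 and 6781 in P28 Smo*. The P28 WT libraries stood above the other 9, whose highest was P20 Smo* replicate 3. It rose with age in WT from 6039 ± 207 to 16023 ± 466 (log2 fold change 1.41 ± 0.13 (SE), adjusted p = 1.95e-05 by limma). At P28 it was lower in Smo* (log2 fold change -1.08 ± 0.12 (SE), adjusted p = 0.00174 by limma). In Smo* the change with age was 0.14 (SE 0.13, limma adjusted p = 0.544), and the Smo* effect at P28 was lower than that at P20 by 1.27 on the log2 scale (SE 0.18, limma adjusted p = 0.00313). The rise in WT, the P28 difference and the difference between ages were each called in every fit that left out 1 library. Without P28 Smo* replicate 3 the P28 difference was -1.01 (limma adjusted p = 0.00185).

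Fzd2, the second highest receptor per kb, held 3277, 2763 and 4323 normalised counts in P20 WT, 3945, 5462 and 6176 in P20 Smo*, 3599, 2849 and 3315 in P28 WT and 4445, 4832 and 7237 in P28 Smo*. The Smo* libraries were above the WT libraries at P28 without overlap, and overlapped with them at P20. The P28 difference just missed the threshold (log2 fold change 0.73 ± 0.19 (SE), adjusted p = 0.0555 by limma) and passed without P28 Smo* replicate 3, the highest of its group (0.52, limma adjusted p = 0.047). The authors' deposited table called it at P28 (adjusted p = 0.0125).

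Fzd7, a receptor often found on stem cells, held 2494, 1991 and 2530.4 normalised counts in P20 WT, 2243, 2259 and 2994 in P20 Smo*, 3079, 3092 and 3161 in P28 WT and 2647, 2798 and 2781 in P28 Smo*. All P28 WT libraries were above all P20 WT libraries, by a small margin. Its rise in WT was 0.42 (SE 0.13, limma adjusted p = 0.0304), lost without P20 WT replicate 2 or any P28 WT library (up to 0.127).

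Fzd4, the receptor for the non-Wnt ligand norrin, held 2633, 1941 and 1476 normalised counts in P20 WT, 2852, 3870.3 and 2753 in P20 Smo*, 4494, 2399 and 3095 in P28 WT and 5253, 4359.7 and 4133 in P28 Smo*. The 2 WT groups overlapped, since P28 WT replicate 2 was below P20 WT replicate 1. Its rise in WT (0.71, SE 0.24, limma adjusted p = 0.0475) was lost without P20 WT replicate 2 or 3 or P28 WT replicate 1 or 3 (up to 0.185), with no filter on low counts (0.0593) and in a fit on the 6 WT libraries (0.0686).

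Fzd5 held 536, 659 and 694 normalised counts in P20 WT, 652, 346 and 385 in P20 Smo*, 379, 409 and 306 in P28 WT and 743, 469 and 439.6 in P28 Smo*. P28 WT was below P20 WT without overlap, and replicate 1 was the highest library of both Smo* groups. The fall in WT was -0.79 (SE 0.25, limma adjusted p = 0.0382), and was called only with all libraries or without P20 WT replicate 1, reaching 0.139 at most.

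Fzd9, low in all libraries, held 47.5, 55.2 and 75.2 normalised counts in P20 WT, 46.5, 32.2 and 31.9 in P20 Smo*, 24.7, 21.4 and 13.8 in P28 WT and 28.7, 40.8 and 68.5 in P28 Smo*. P28 WT was the lowest group and overlapped with no other. Its fall in WT (-1.53, SE 0.39, limma adjusted p = 0.0134) was lost without replicate 3 of either WT group (up to 0.061). The P28 difference between genotypes was not called by limma, while the authors' deposited table called Fzd9 as higher in Smo* (adjusted p = 0.0406).

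Of the other 4 frizzled receptors, Fzd3, Fzd6, Fzd8 and Fzd10, none was called by limma with all libraries of its comparison in the fits described above. A limma fit on the 6 WT libraries alone called Fzd8 as lower and Fzd10 as higher at P28 than at P20, and DESeq2 called Fzd10 as higher in P28 Smo* than in P28 WT and P20 Smo*, and Fzd3 as lower in P28 Smo* than in P20 Smo*. Fzd10 spread from 155 to 1954 normalised counts, and in P28 Smo* its libraries held 1221, 1954 and 348 against 556, 469 and 488 in P28 WT. Replicate 3 was the lowest P28 library and replicates 1 and 2 were the highest of all 12. Without that replicate the P28 difference was 1.62 (limma adjusted p = 0.00232), against 0.90 (0.325) with it. Fzd3 ranged from 461 to 850.01, Fzd8 from 588 to 968 and Fzd6 from 43.3 to 137.

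The co-receptors Lrp5 (3098 to 4697 normalised counts) and Lrp6 (5968 to 7908), which beta-catenin signalling requires, were called in no comparison with all libraries. Lrp5 was called as lower at P28 than at P20 in Smo* by DESeq2, and by limma without P20 Smo* replicate 2. Their log2 fold changes at P28 between genotypes were -0.13 (SE 0.11) and 0.04 (SE 0.13). Ryk, an atypical tyrosine kinase that binds Wnts, was the third highest receptor per kb. Its libraries held 4703, 4939 and 5622 normalised counts in P20 WT, 4128, 4806 and 4234 in P20 Smo*, 4745, 4646 and 4644 in P28 WT and 4296, 4007 and 4499 in P28 Smo*. The 4 groups lay close together, and no comparison passed for Ryk (-0.13, SE 0.10, limma adjusted p = 0.439 at P28).

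Ror1, a receptor for Wnt5a, held 1219.8, 1621 and 1366 normalised counts in P20 WT, 1705, 1258 and 1218 in P20 Smo*, 732, 782 and 458 in P28 WT and 1129.5, 891 and 1373 in P28 Smo*. The P28 WT libraries were the lowest of the 12. Ror1 fell with age in WT (log2 fold change -1.12 ± 0.22 (SE), adjusted p = 0.00338 by limma), called without each library in turn, while its P28 difference between genotypes did not pass (0.80, limma adjusted p = 0.0817) and the authors' deposited table called it (adjusted p = 0.0101). Its relative Ror2 ranged from 1748 to 2489.9 and was called in no comparison by limma (-0.36, SE 0.10, limma adjusted p = 0.0656 at P28), while DESeq2 called it as lower in Smo* at P28 (DESeq2 adjusted p = 0.0236).

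The rest of the pathway was described from 7 lists of genes, some of which share members. The counts of each list stand against the shares of all genes tested: 4.05% higher and 4.85% lower between the genotypes at P28, 0.485% and 0.212% at P20, and 13.5% and 11.9% with age in WT. These shares are of the fits with all libraries, here and for the cell markers below. Counts without P28 Smo* replicate 3 have no share of all genes beside them. At P28, Smo* against WT, 0 of 5 genes of Wnt secretion passed, with or without P28 Smo* replicate 3. The nearest to the threshold were the Wnt carrier Wls (5608 ± 606 in Smo* against 7609 ± 134 in WT, limma adjusted p = 0.0561) and Porcn, which attaches the lipid (286 ± 55.6 against 451 ± 18.5, limma adjusted p = 0.0567), and Vps35 was next (limma adjusted p = 0.514). In WT both Porcn and Wls rose from P20 to P28 (2 of 5 rose, limma adjusted p = 0.000345 and 0.0186).

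Among 15 other co-receptors and surface regulators, 3 rose and 4 fell at P28 in Smo* against WT (4 and 4 without P28 Smo* replicate 3). The glypican Gpc6 fell from 9181 ± 834 to 2846 ± 46 (log2 fold change -1.69 ± 0.11 (SE), adjusted p = 0.000174 by limma), the Wnt inhibitor Apcdd1 fell from 31179 ± 722 to 11881 ± 308 (limma adjusted p = 0.000578), and the glypican Gpc3 rose from 15728 ± 1998 to 45256 ± 2757 (limma adjusted p = 0.00102). Gpc3 was the 1 gene of this list called at P20 as well, higher in Smo* (limma adjusted p = 0.015).

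R-spondins bind Lgr receptors and the ligases Znrf3 and Rnf43, and so keep frizzled receptors on the cell surface. Of 8 tested genes of this group, 2 rose and 2 fell (3 and 4 without that replicate). Rspo4 fell to 1054 ± 944 in P28 Smo*, Rspo1 fell from 6789 ± 773 to 2340.2 ± 762 (limma adjusted p = 0.00689), and the receptor Lgr6 rose from 382 ± 191 to 1544 ± 128 (limma adjusted p = 0.00507). At P20, 2 of the 8 rose in Smo* and 0 fell (25% higher, where 0.485% of all genes tested were). From P20 to P28 in WT, 5 of the 8 rose and 2 fell, where 13.5% of all genes rose and 11.9% fell.

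Secreted Wnt inhibitors changed in both directions, with 2 of 12 tested higher and 3 lower in P28 Smo* (2 and 6 without that replicate). Sfrp1 fell from 81196 ± 10562 to 8750.4 ± 2554 (log2 fold change -3.25 ± 0.24 (SE), adjusted p = 0.000281 by limma), while Sfrp5 rose from 62.5 ± 28.9 to 1243 ± 379 (limma adjusted p = 0.000697) and Sost from 2.45 ± 1.14 to 89.3 ± 26.8 (limma adjusted p = 0.00279). Sost, 1 of the 2 counted as higher, could be tested at P28 only because Smo* was high, which limits what its call shows. At P20, 1 of 12 rose in Smo* (8.33%, where 0.485% of all genes tested did) and 0 fell. There 10 of the 12 had an unadjusted p under 0.05, against 1669 of the 14645 genes tested, and 6 of the 12 lay above 0.

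Of 18 genes of the beta-catenin core and the TCF factors, 0 rose and 1 fell at P28 (0 and 1 also without P28 Smo* replicate 3). With all libraries the 1 was Lef1, which fell from 5052 ± 1061 to 1349 ± 603 (limma adjusted p = 0.00933). Tcf7l1 (1802 ± 259.7 in Smo* against 1263 ± 38.7, limma adjusted p = 0.0542) and Dvl3 (limma adjusted p = 0.0691) did not pass. Of 15 tested feedback targets of beta-catenin, 2 rose and 6 fell (2 and 7 without P28 Smo* replicate 3), with a median of -0.54. Besides Apcdd1 and Lef1, Axin2, a widely used readout of the pathway, fell from 4156 ± 237 to 1581 ± 627 (log2 fold change -1.46 ± 0.25 (SE), adjusted p = 0.0112 by limma). The 2 that rose were Dact1 and Lgr5. At P20, 0 of these 15 were called and 3 had an unadjusted p under 0.05, as 1669 of the 14645 genes tested did.

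Of 15 genes of planar polarity and the other beta-catenin-independent routes, 3 rose and 4 fell at P28 (3 and 4 without P28 Smo* replicate 3). The polarity cadherin Celsr1 fell from 296 ± 107 to 42.9 ± 4.43 (log2 fold change -2.70 ± 0.30 (SE), adjusted p = 0.0017 by limma), Prickle1 rose from 1156 ± 146 to 2410.5 ± 153 (limma adjusted p = 0.00255), and Fjx1 fell from 452 ± 27.7 to 161 ± 48.6 (limma adjusted p = 0.00872). From P20 to P28 in WT, 8 of these 15 rose and 2 fell, with a median of 0.60 against -0.01 over all genes tested.

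Other cells near the papilla also make Wnts, so markers of these cells are given beside the results. Keratinocytes, the epithelial cells of skin, had low defining markers: Krt5 was 14.6 to 388 normalised counts over the 12 libraries, Krt14 0 to 219.7 and Epcam 0 to 23.7. In P28 Smo* replicate 3, Krt14 and Epcam had 0 reads. The summed level of the 15 keratinocyte markers was 1757 to 3841 in P20 WT, 1783 to 5842 in P20 Smo*, 1487 to 1850.3 in P28 WT and 2466 to 3825 in P28 Smo*. Beside the fall of Wnt6 and Wnt10a with age in WT, 1 of 14 tested keratinocyte markers fell and 1 rose (7.14% each, where 11.9% of all genes tested fell and 13.5% rose). The 1 that fell was the laminin chain Lama3, at 866 to 895 in P20 WT, 483 to 3239.9 in P20 Smo*, 71.8 to 84.5 in P28 WT and 113 to 287 in P28 Smo*. Beside the rise of Wnt6, Wnt9a and Wnt16 in P28 Smo*, 1 of 14 rose, the integrin Itgb4 (305 to 434 in P28 WT, 1689 to 2966 in P28 Smo*), and 0 fell (1 rose and 2 fell without P28 Smo* replicate 3). Over all genes tested 4.05% rose and 4.85% fell with all libraries. Only 3 of the 14 lay above 0, their median log2 fold change was -0.99, and 9 had an unadjusted p under 0.05, so most of these markers were lower in P28 Smo* while Itgb4 made up much of the summed level. The part of these cells in the results was not tested.

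**Figure D5:**
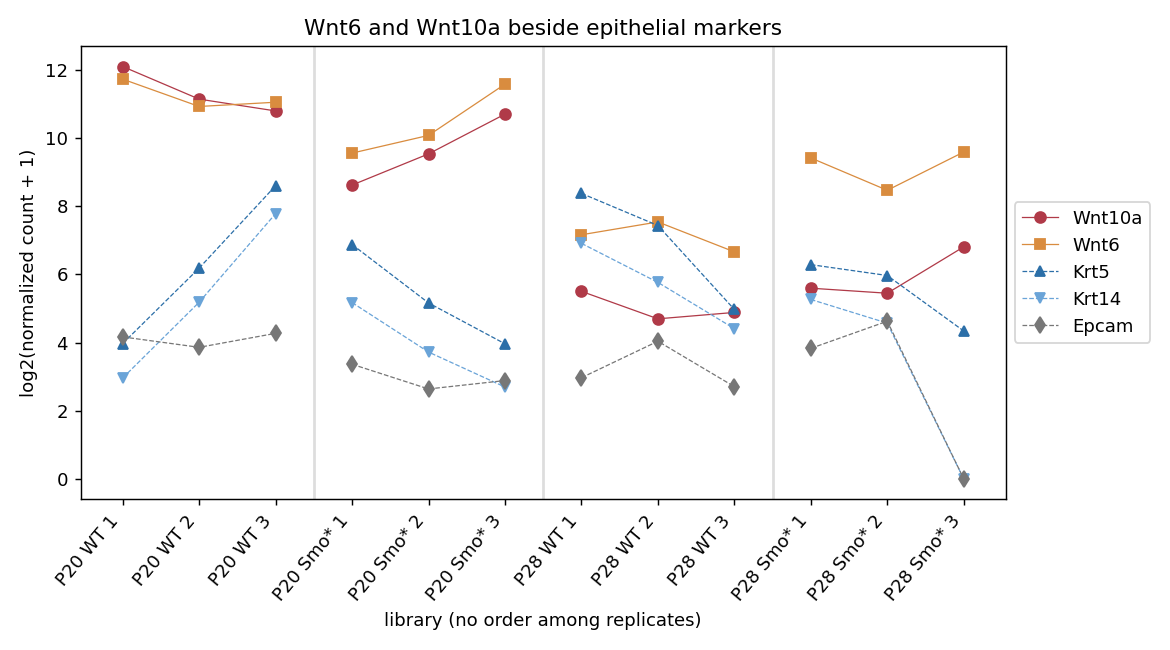
Wnt6 and Wnt10a beside the keratinocyte markers Krt5, Krt14 and Epcam, as log2(normalised count + 1), in each of the 12 libraries. Lines join the libraries of a group, which have no order. Krt5 and Krt14 vary widely within a group, and Wnt6 and Wnt10a are high in P20 WT replicate 1, where Krt5 is 14.7 normalised counts, as well as in replicate 3, where it is 388. The rest of the 15 markers are not plotted. Of these, Lama3 was high in P20 WT (866 to 895) and low in P28 WT (71.8 to 84.5), as were Wnt6 and Wnt10a. P20 Smo* replicate 3 was the highest of its group for Lama3 (3240) and for both ligands. The part of keratinocytes was not tested.

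Endothelial markers lay higher in P28 Smo* than in P28 WT. Of 10 tested, all 10 lay above 0, with a median log2 fold change of 1.73. In Smo* 3 rose (30%, where 4.05% of all genes tested did) and 0 fell, and the same counts were found without P28 Smo* replicate 3. Their summed level was 1826 to 3450.5 in P28 WT and 3678 to 6315 in P28 Smo*, without overlap. The endothelial cadherin Cdh5 rose from 94.1 ± 54.4 to 1817 ± 608 (log2 fold change 4.37 ± 0.45 (SE), adjusted p = 0.00125 by limma), and no endothelial marker was at or under 3 reads in all libraries. Cdh5 made up much of the rise in the sum. At P20, Smo* against WT, 0 of 10 passed, 3 lay above 0 and the median was -0.53. Cdh5 (491 to 782 in P20 Smo* against 75.7 to 431 in P20 WT) and Kdr (804 to 1072 against 451 to 592) were higher there without overlap. Adipocyte markers summed to 644 to 5556 in P28 Smo* against 706 to 781 in P28 WT, with the highest sum in P28 Smo* replicate 3, where Adipoq was 1018 normalised counts against 25.3 and 1.9 in the other two. Immune cell markers summed to 1051 to 1356 in P28 Smo* against 925 to 1278 in P28 WT. Of the markers of other cells tested at P28, 0 of 5 adipocyte, 0 of 4 immune and 0 of 6 melanocyte markers passed. Of Schwann cell markers 1 of 6 fell, of hair matrix and shaft markers 1 of 4, and of dermal fibroblast markers 1 of 10. Of 9 markers of the sheath and of smooth muscle 2 passed, 1 in each direction. These counts stand against 4.05% higher and 4.85% lower over all genes tested. Without P28 Smo* replicate 3, 1 of 3 adipocyte and 0 of 10 dermal fibroblast markers fell, and 1 of 7 melanocyte markers rose. In that fit 0 of 5 immune markers passed, 1 of 6 Schwann cell and 1 of 5 hair matrix and shaft markers fell, and the sheath counts stayed. Of the 15 dermal papilla markers 1 rose and 6 fell in P28 Smo* against WT (6.67% and 40%), and 2 and 6 without P28 Smo* replicate 3. At P20 3 of them rose in Smo* (20%) and 1 fell (6.67%), where 0.485% of all genes tested rose and 0.212% fell. There 12 of the 15 had an unadjusted p under 0.05, and 10 lay above 0. From P20 to P28 in WT 9 rose (60%) and 0 fell, where 13.5% of all genes tested rose and 11.9% fell. Dermal fibroblast markers lay lower in P20 Smo* than in P20 WT. Of 10 tested there, 0 lay above 0, with a median log2 fold change of -0.44, and 7 had an unadjusted p under 0.05. By limma 0 rose and 1 fell (10%, where 0.212% of all genes tested did). The part of these cells, and of the papilla share, in the results was not tested.

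Reads of overlapping genes can be mixed. The kit marks the strand, but the sources used here do not say whether counting used it. Wnt5a overlaps the antisense gene Gm2670 (59.3 to 214 normalised counts), Wnt5b overlaps Fbxl14 on the other strand (640.2 to 1136), Wnt7b overlaps AU022754 (0 to 7.23) and Fzd6 overlaps Gm26704 (0 to 18.2). Besides Wnt6 and Wnt10a, close neighbours among the ligands were Wnt3a and Wnt9a on chromosome 11 (16175 bases apart), Wnt9b and Wnt3 on chromosome 11 (24328) and Wnt10b and Wnt1 on chromosome 15 (11706). Of these neighbours Wnt3a and Wnt3 were not expressed.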

How the data were processed

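RNA of sorted dermal papilla cells was sequenced after ribosomal depletion with a kit that marks strand, per the labels' protocols. The submitters' processing notes name HTSeq, TopHat2 (version 2), Trimmomatic and DESeq2 as tools, and GRCm38.p4 and mm10 as builds, without roles or order. The deposited values are a normalised signal: read counts per gene that the authors divided by 1 size factor per library. All 100% of values were whole multiples of 1 read, within 0.01 reads. The authors' deposited tables also hold log2 fold changes of WT over Smo* and adjusted p-values, used here only where named. Both tables were normalised together, since the deposited mean column is the mean of all 12 libraries.

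Gene symbols and exon lengths came from GENCODE M21 (GRCm38), which named 25562 of the 25887 Ensembl identifiers (98.7%), and promoters from RefSeq. limma 3.58.1 with a trend in the variance was fitted in R 4.3.3 to log2(value + 1) of genes with a mean of at least 10, on the 6 libraries of an age for the genotypes and on all 12 for the ages and the difference between them. A fold change on this scale understates the change of low genes. P-values were adjusted by Benjamini-Hochberg over all genes tested, with a threshold of 0.05. Alternatives were TMM scaling, other filters and pseudocounts, edgeR 4.0.16 and DESeq2 1.42.0 on recovered reads (93 and 480 genes called at P20, 1336 and 2296 at P28), other sets of libraries and leaving out each library. The calculation was tested on simulated data.

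The members and lists were chosen with earlier results of these data known. All 34 members are accounted for. Values per library are given for members called in a comparison and for the 4 ligands and 4 receptors with the highest level per kb, and other pathway lists by the 3 genes with the lowest adjusted p at P28. Replicate numbers follow the order of the samples and pair nothing. Intervals cover counting error only.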

Additional observations from a re-analysis of the deposited data

Results flagged for a closer look

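For 3 of the 34 genes the effect of Smo* differed between P28 and P20 in a direct test of the difference over all 12 libraries. The log2 difference of Smo* to WT was higher at P28 than at P20 by 2.87 for Wnt6 (limma adjusted p = 0.0288). It was lower at P28 for Wnt5b, with a difference of -1.03 (limma adjusted p = 0.0369), and for Fzd1, with -1.27 (limma adjusted p = 0.00313). For Fzd1 the call was made in all 12 fits that left out 1 library, for Wnt6 in 6 and for Wnt5b in 3 of 12. The ages also differ in sex and in hair cycle stage, and at P28 the genotypes differ in stage as well. These cannot be told apart here.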

How the results depend on the processing

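No member called in a comparison changed direction in any alternative: of 332 such values, 281 stayed past the threshold and 51 did not. Of 34 genes, 26 to 31 counted as expressed under other thresholds. At P20, Smo* against WT, where 102 of all genes and 0 members were called, DESeq2 called 480 and 3, the authors' deposited table had 342 and 1, and limma on 12 libraries 1 member. Leaving out 1 library gave 8 to 129 genes and 0 members there. At P28, where 1313 genes and 5 members were called, DESeq2 called 2296 and 10, the authors' deposited table had 2880 and 9, and limma on 12 libraries 2058 genes. Leaving out 1 library gave 461 to 1619 genes and 3 to 8 members. With age in WT (3761 genes, 13 members), leaving out 1 library gave 2336 to 3139 genes and 7 to 11 members. With age in Smo* (511 genes, 2 members), DESeq2 called 1615 and 7 and limma on 6 libraries 69 and 1. There a filter at a mean of 50 and a pseudocount of 5 each left 1 member, and leaving out 1 library gave 49 to 1049 genes and 1 to 5 members. For the difference between ages (698 genes, 3 members), DESeq2 called 1482 and 7, and leaving out 1 library gave 254 to 922 genes and 1 to 6 members. Why these counts moved was not tested. The member count moved by over 1.5 times without any P28 WT library or P28 Smo* replicate 3 at P28 between genotypes, without P28 WT replicate 1 or 3 with age in WT, without any library but P20 Smo* replicate 2 with age in Smo*, and without P20 WT replicate 1 or 3, P20 Smo* replicate 2, P28 WT replicate 3 or P28 Smo* replicate 1 or 2 for the difference between ages. No paired analysis was possible because the labels give the groups no shared replicate numbers. The sample titles carry numbers whose meaning is not given, and no pairing was drawn from them. Depth limits the statements on Wnt1, Wnt7b and Wnt9b, which had few reads.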
